A study of Mus musculus with 6 samples.

Results

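Assembly factors of the small ribosomal subunit were followed in activated mouse regulatory T cells (Treg cells), the CD4 T cells defined by the transcription factor Foxp3. The set held 44 genes of the 47069 measured: 38 factors of the small subunit processome and 6 factors of late 40S maturation. They were chosen by symbol from knowledge of the pathway, with earlier results of these data known, leaving out Noc4l and its partners. All 44 were matched by Ensembl gene ID, all were above 0 in each library, and their mean levels ran from 7.63 (Utp20) to 217 FPKM (Fbl), a unit that scales fragments to gene length and library size.

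The study compared Treg cells labelled as Noc4l deficient (cKO) with cells labelled as Noc4l sufficient (Het). All mice carried a Cre recombinase driven by Foxp3, and the alleles were Noc4lfl/fl in cKO (conditional knockout) and Noc4l+/fl in Het, so recombination was directed at Foxp3-expressing cells in both. CD4+GFP+CD62Lhigh cells from lymph node and spleen were sorted, and activation with Dynabeads lasted 72 h or 48 h. Libraries are named below by label and replicate number: cKO 2, Het 1, cKO 4 and Het 3 at 72 h, and cKO 2 and Het 1 at 48 h. The first table held replicates 1 and 2, the second replicates 3 and 4, and at 72 h cKO 2 with Het 1 is called the first pair and cKO 4 with Het 3 the second. Differences within a pair are of log2(FPKM + 1), cKO minus Het. Neither the ages of the mice nor whether a library came from 1 animal or a pool is stated in the labels, so p-values measure only the spread between these libraries. One passage of the labels gives the same alleles for both genotypes, and each library was placed by its own genotype label.

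The small subunit processome, also called the 90S pre-ribosome, forms on the nascent ribosomal RNA precursor in the nucleolus. The UTP-A and UTP-B complexes bind the 5′ external spacer, the U3 small nucleolar ribonucleoprotein (snoRNP) pairs with the precursor, and helicases, a GTPase and nucleases then free the pre-40S particle. Late factors travel with that particle to the cytoplasm, where the 3′ end of 18S ribosomal RNA is cut. T cells raise ribosome production when they are activated and grow. Noc4l, the targeted gene, is the counterpart of a yeast processome protein.

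Several libraries stood apart. Noc4l was not lower under the cKO label: it was at 81.7 FPKM in cKO 2 against 48.8 in Het 1 and at 58.1 in cKO 4 against 40.8 in Het 3 at 72 h, and at 124 in cKO 2 against 99.1 in Het 1 at 48 h. Its log2 fold change at 72 h was 0.62 ± 0.14 (SE, limma adjusted p = 0.187). Since Noc4l is at odds with the labels, every difference below is one between libraries labelled cKO and Het. With a single value for each gene, a loss of exons alone could not be read. Foxp3 ran from 147 to 336 FPKM and all 7 Treg markers were above 1 FPKM in each library. The 10 neutrophil and myeloid markers summed to 368 FPKM in cKO 2 against 39 in Het 1 and to 75.6 in cKO 4 against 21.9 in Het 3 at 72 h, and to 429 in cKO 2 against 44 in Het 1 at 48 h. Of these 10, 6 were listed at 0 in cKO 4 and 6 in Het 3, though not all the same genes. The defining genes S100a8 and S100a9 were at 0 in both. Nearly all of the sum was Ltf in cKO 4, at 75.3 FPKM, and in Het 3, at 21.4. The same held for Het 1, with Ltf at 38.2 FPKM at 72 h and 43.5 at 48 h. In cKO 2, Ltf was at 107 FPKM, S100a8 at 75.9 and S100a9 at 90.7 at 72 h. At 48 h these genes were at 102, 81.2 and 110 in cKO 2. The 5 B cell markers summed to 83.5 FPKM in cKO 2 at 72 h and to between 8.18 and 22.6 in the other libraries. The 7 CD8 T and NK cell markers summed to 297 FPKM in cKO 2 at 72 h, 79.9 in Het 1, 119 in cKO 4 and 14.2 in Het 3. At 48 h they summed to 42.3 in cKO 2 and 30.1 in Het 1. In cKO 4 most of the sum was Nkg7, at 89.1 FPKM, and Gzma, at 22.8. Cd8a was at 39 FPKM in cKO 2, 20.3 in Het 1, 2.24 in cKO 4 and 1.01 in Het 3 at 72 h. Cd8b1 and Klrd1 were also lower in cKO 4 than in Het 1, at 4.47 against 11.5 and 0.453 against 4.84. The 6 erythroid and platelet markers summed to 23.7 FPKM in cKO 2, 26.4 in Het 1, 0.623 in cKO 4 and 5.5 in Het 3 at 72 h, and to 30.4 in cKO 2 and 1.66 in Het 1 at 48 h. The like sums of cKO 2 and Het 1 at 72 h hid opposite members. Hbb-bs and Hba-a2 were higher in cKO 2, and Hba-a1 and Hbb-bt were higher in Het 1. The platelet genes Pf4 and Ppbp were below 1 FPKM in each library. Estimated depth was 16.5 to 28.8 M fragments.

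The 44 factors fell into a high and a low set of libraries that did not follow the genotype labels. Both 48 h libraries and cKO 2 at 72 h were above Het 1, cKO 4 and Het 3 at 72 h for 41 of the 44 factors, while 20.8% of the 12394 genes that averaged 1 FPKM or more had this order. This order was noticed in the data and carries no test. The median factor was at 40.7 FPKM in cKO 2 against 21.9 in Het 1 and at 21.1 in cKO 4 against 23.3 in Het 3 at 72 h, and at 36.2 in cKO 2 against 36.1 in Het 1 at 48 h. The 3 exceptions were Utp3, Ddx52 and Utp23. Together the 44 genes held 0.350% of all FPKM in cKO 2 and 0.203% in Het 1 at 72 h, 0.209% in cKO 4 and 0.208% in Het 3, and 0.339% in cKO 2 and 0.326% in Het 1 at 48 h. In bulk libraries, fewer cells of a type and less RNA per cell cannot be told apart. cKO 2 at 72 h also had the highest sums of B cell and of CD8 T and NK cell markers, and the 2 cKO 2 libraries had the highest sums of neutrophil and myeloid markers. The part of these cells in the order was not tested.

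**Figure D1:**
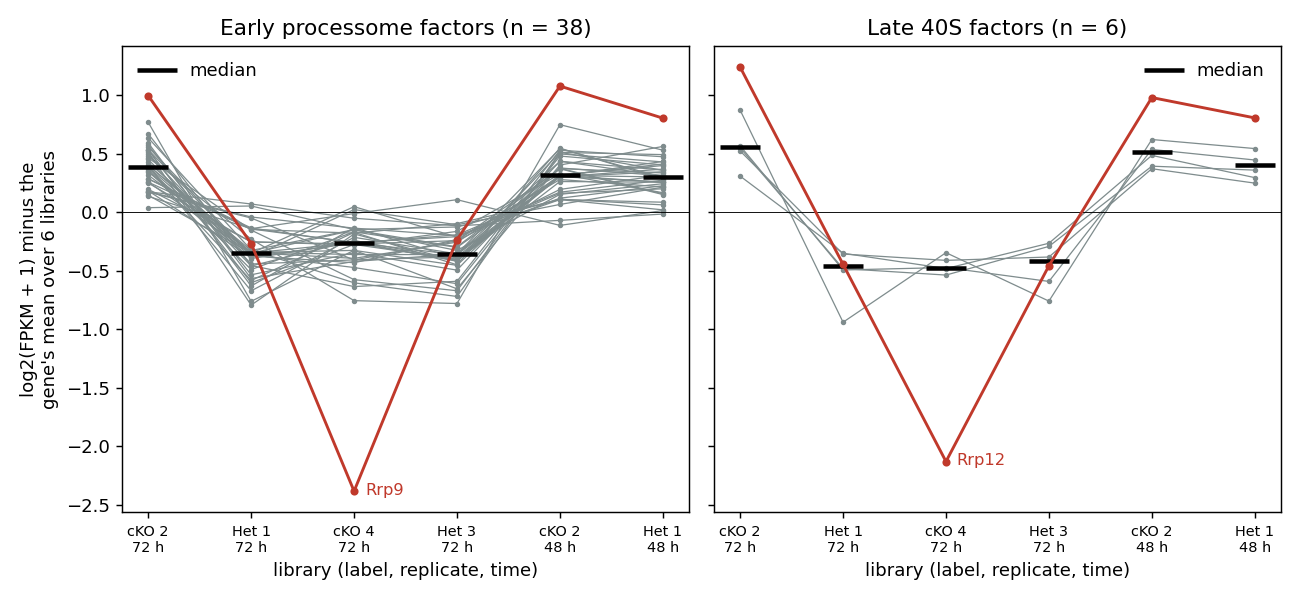
Level of each factor in the 6 libraries, as log2(FPKM + 1) minus the gene's mean over all 6, for the 38 early processome factors and the 6 late 40S factors. Each thin line is 1 gene and the black bars are medians. The 41 factors with both 48 h libraries and cKO 2 at 72 h on top form the bands, and Rrp9 and Rrp12 are far lower in cKO 4 than elsewhere.

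The factors are spread over 19 chromosomes, and 4 of them hold 14 small nucleolar RNA genes within their bounds: Nop56, Nop58, Wdr43 and Tsr1. Promoter windows from RefSeq (build GRCm38.p6, from 250 bases before to 50 after the start) were given for 35 of the 44 factors. The E-box CACGTG, the sequence bound by Myc and related factors and the same on both strands, was in 10 of these 35 (28.6%), beside 8.09% of all 27025 genes with a window. The non-palindromic CACGCG, searched on both strands, was in 8 of 35 (22.9%), beside 10.5% of genes, and TCTCGCGA in 2 (5.71%), beside 1.13%. No 2 of these motifs can share letters. Shown here are 30-base stretches around the E-box, in capitals, for the 7 factors with one whose levels in each library are given below. The E-box began 38 bases after the start in Pno1 and Utp20, 29 after it in Ltv1, 25 in Tsr1 and 16 in Utp4, and at -12 and -121, before the start, in Wdr46 and Imp4.
Pno1 (chr11:17211540-17211569, minus strand): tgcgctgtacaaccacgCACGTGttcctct
Utp20 (chr10:88826765-88826794, minus strand): cccagcggcactaactaCACGTGaggaaaa
Ltv1 (chr10:13193092-13193121, minus strand): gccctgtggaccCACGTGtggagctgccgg
Tsr1 (chr11:74898092-74898121, plus strand): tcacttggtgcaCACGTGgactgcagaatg
Utp4 (chr8:106893643-106893672, plus strand): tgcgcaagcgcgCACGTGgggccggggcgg
Wdr46 (chr17:33940699-33940728, plus strand): aagggagtttcgCACGTGgatcgttgttcg
Imp4 (chr1:34439696-34439725, plus strand): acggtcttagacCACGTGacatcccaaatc
The other factors with an E-box were Aatf, Utp18 and Wdr43. The 10 factors with an E-box had a median difference of log2(FPKM + 1) of 0.99 in cKO 2 against Het 1 and of 0.02 in cKO 4 against Het 3 at 72 h, and the 25 without one had 0.77 and 0.10. In Het 1 the median difference of 72 h against 48 h was -0.86 with an E-box and -0.72 without. These are descriptions of the letters and of the levels, with no test, and a match is not evidence of binding.

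Among the late 40S factors, Pno1 had the widest range between libraries labelled cKO and Het in the first pair. Pno1, an RNA-binding partner of the nuclease Nob1, was at 30.9 FPKM in cKO 2 against 8.07 in Het 1 and at 12.7 in cKO 4 against 9.28 in Het 3 at 72 h, and at 25.8 in cKO 2 against 24.4 in Het 1 at 48 h. Both cKO libraries were above both Het libraries at 72 h, as in 24.9% of all genes. The log2 fold change of Pno1 there, from 2 libraries of each genotype, was 1.11 ± 0.38 (SE, limma adjusted p = 0.276). Ltv1, which sits on the head of the pre-40S particle, was at 27.6 FPKM in cKO 2 against 12.7 in Het 1 and at 12.9 in cKO 4 against 11.8 in Het 3 at 72 h, and at 27.0 in cKO 2 against 25.3 in Het 1 at 48 h. Its groups at 72 h did not overlap either, but cKO 4 was only slightly above Het 1 and much nearer to the Het libraries than to cKO 2, and the log2 fold change was 0.59 ± 0.27 (SE).

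Nob1, the endonuclease that makes the 3′ end of 18S ribosomal RNA, was at 66.3 FPKM in cKO 2 against 41.6 in Het 1 and at 37.9 in cKO 4 against 44.2 in Het 3 at 72 h, and at 75.1 in cKO 2 against 65.7 in Het 1 at 48 h. Tsr1, a GTPase-like protein that keeps translation factors off the immature subunit, was at 42.6 FPKM in cKO 2 against 20.3 in Het 1 and at 19.5 in cKO 4 against 23.3 in Het 3 at 72 h, and at 38.1 in cKO 2 against 37.2 in Het 1 at 48 h. Bysl, the counterpart of yeast Enp1, was at 18 FPKM in cKO 2 against 9.31 in Het 1 and at 8.93 in cKO 4 against 9.13 in Het 3 at 72 h, and at 16.1 in cKO 2 against 14.7 in Het 1 at 48 h. For these 3 genes the genotypes overlapped at 72 h, with cKO 4 the lowest of the 4 libraries and cKO 2 the highest. Their log2 fold changes were 0.22 ± 0.25 for Nob1, 0.39 ± 0.35 for Tsr1 and 0.43 ± 0.27 for Bysl (SE). The exons of Bysl overlap over 9.4% of their length with Ccnd3 on the opposite strand, and those of Tsr1 over 32.3% with Srr. Without a stated strand setting such reads cannot be told apart.

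**Figure D2:**
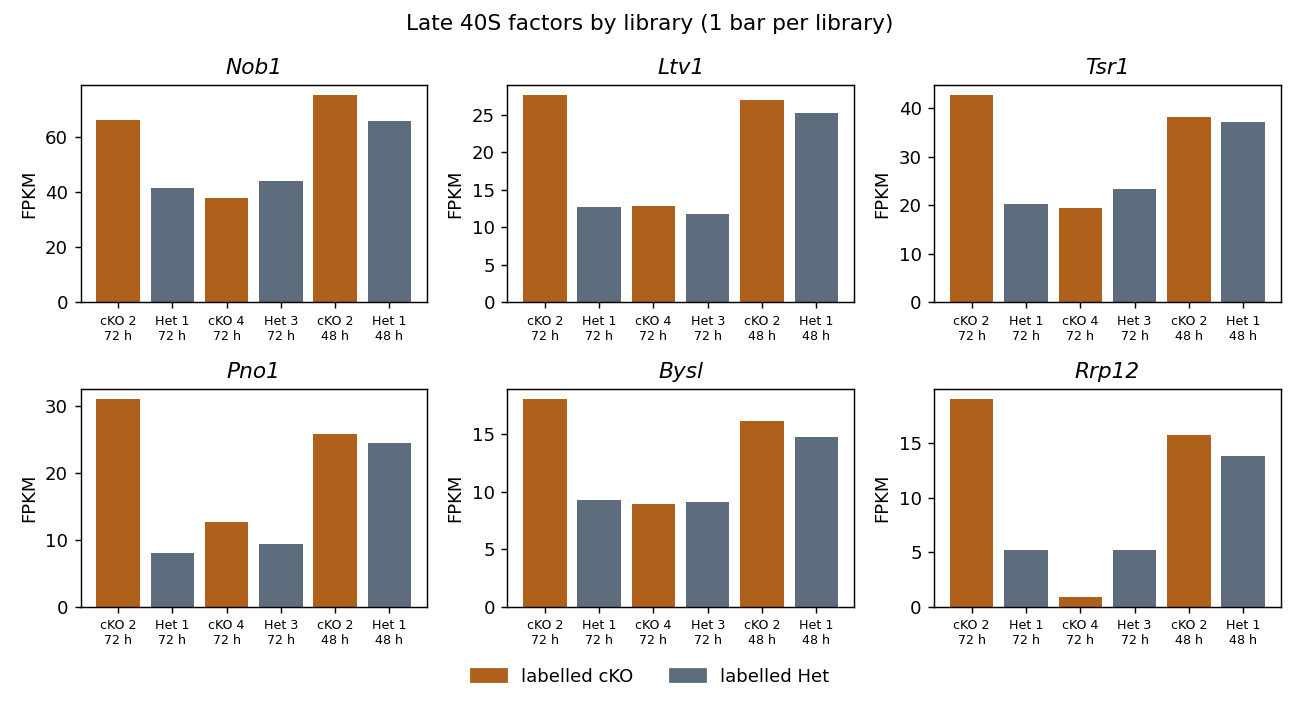
FPKM of the 6 late 40S factors, 1 bar per library, with libraries labelled cKO in orange and those labelled Het in grey. In each panel cKO 2 at 72 h stands near the 48 h libraries, and Pno1 is lowest, at 8.07 FPKM, in Het 1 at 72 h.

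Rrp12, a HEAT-repeat protein of pre-40S export, and Rrp9, the U3-specific protein of the snoRNP, behaved differently in the second pair. Rrp12 was at 19.0 FPKM in cKO 2 against 5.21 in Het 1 and at 0.929 in cKO 4 against 5.16 in Het 3 at 72 h, and at 15.7 in cKO 2 against 13.8 in Het 1 at 48 h. Rrp9 was at 91.8 FPKM in cKO 2 against 37.6 in Het 1 and at 7.89 in cKO 4 against 38.5 in Het 3 at 72 h, and at 97.2 in cKO 2 against 80.2 in Het 1 at 48 h. Both were thus the highest of the 72 h libraries in cKO 2 and the lowest in cKO 4, far below the other 5 libraries. The log2 fold changes, 0.01 ± 0.87 for Rrp12 and -0.44 ± 0.88 for Rrp9 (SE), average 2 opposite pairs, at 1.69 and -1.68 for Rrp12 and at 1.27 and -2.15 for Rrp9. Rrp12 had an estimated 66 fragments in cKO 4, with an exact Poisson 95% interval of 0.718 to 1.18 FPKM, against 4.74 to 5.61 in Het 3. For Rrp9 the interval was 6.46 to 9.54 FPKM in cKO 4, from an estimated 106 fragments, against 35.8 to 41.3 in Het 3. These intervals cover counting error only, and are given for these 2 genes because their differences in the second pair were the lowest of the 44.

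The UTP-A complex, which is also linked to transcription of ribosomal DNA, had a median log2 difference of 1.13 in the pair of cKO 2 and Het 1 and of -0.07 in the pair of cKO 4 and Het 3 at 72 h. Utp4 was at 45.5 FPKM in cKO 2 against 20.3 in Het 1 and at 17.8 in cKO 4 against 18.4 in Het 3 at 72 h, and at 41.2 in cKO 2 against 39.6 in Het 1 at 48 h. Heatr1, the counterpart of yeast Utp10, was at 22.1 FPKM in cKO 2 against 9.52 in Het 1 and at 12.2 in cKO 4 against 11.1 in Het 3 at 72 h, and at 18.8 in cKO 2 against 20.6 in Het 1 at 48 h. Utp15 was at 18.5 FPKM in cKO 2 against 11.3 in Het 1 and at 10.9 in cKO 4 against 12.1 in Het 3 at 72 h, and at 18.3 in cKO 2 against 19.2 in Het 1 at 48 h. In each of the 3, Het 1 at 72 h was within the low set and cKO 2 within the high set. The remaining members, Wdr43 and Wdr75, the counterparts of yeast Utp5 and Utp17, had differences of 0.91 and 1.16 in the first pair and of -0.20 and -0.07 in the second.

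The UTP-B complex had medians of 0.73 and -0.01 in those pairs. Pwp2, the counterpart of yeast Utp1, was at 14.3 FPKM in cKO 2 against 6.09 in Het 1 and at 7.08 in cKO 4 against 6.29 in Het 3 at 72 h, and at 12.9 in cKO 2 against 12.2 in Het 1 at 48 h. Wdr36, the counterpart of Utp21, was at 26.8 FPKM in cKO 2 against 15.3 in Het 1 and at 15.5 in cKO 4 against 14.1 in Het 3 at 72 h, and at 25.9 in cKO 2 against 24.7 in Het 1 at 48 h. Tbl3, the counterpart of Utp13, was at 33.7 FPKM in cKO 2 against 20.5 in Het 1 and at 20.2 in both cKO 4 and Het 3 at 72 h, and at 34.3 in cKO 2 against 33.4 in Het 1 at 48 h. Wdr36 and Pwp2, named for their small p for genotype, had both cKO libraries above both Het libraries at 72 h. So did 24.9% of all genes, and Tbl3 did not. Tbl3 exons overlap over 37.3% of their length with Noxo1 on the opposite strand. Utp18 had the smallest difference of the complex in the first pair, 0.44, and Utp6 and Wdr3 had 0.50 and 0.77.

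By mean FPKM, the genes of the U3 snoRNP were the highest of the factors. Rrp9, at a mean of 58.9, was only just above Utp3, at 57.6. In cKO 4, at 7.89 FPKM, Rrp9 was below the median factor, at 21.1. Fbl (fibrillarin), the methyltransferase of box C/D snoRNPs, was at 277 FPKM in cKO 2 against 169 in Het 1 and at 117 in cKO 4 against 115 in Het 3 at 72 h, and at 334 in cKO 2 against 287 in Het 1 at 48 h. Nop56, a core protein of the same particles, was at 289 FPKM in cKO 2 against 152 in Het 1 and at 141 in cKO 4 against 128 in Het 3 at 72 h, and at 274 in cKO 2 against 260 in Het 1 at 48 h. Its partner Nop58 was at 169 FPKM in cKO 2 against 86.5 in Het 1 and at 71.0 in cKO 4 against 65.4 in Het 3 at 72 h, and at 155 in cKO 2 against 153 in Het 1 at 48 h. For these 3 genes cKO 4 lay between Het 1 and Het 3, and cKO 2 was above all of them at 72 h. Snu13, which binds the kink-turn of the snoRNA, was at 125 FPKM in cKO 2 against 81.1 in Het 1 and at 60.2 in cKO 4 against 56.3 in Het 3 at 72 h, and at 128 in cKO 2 against 122 in Het 1 at 48 h.

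The MPP10 complex and its binding partner Utp3 had the smallest median of the role groups in the first pair, with medians of 0.34 and -0.07 in the first and second pair at 72 h. Mphosph10 was at 30.1 FPKM in cKO 2 against 15.2 in Het 1 and at 15.6 in cKO 4 against 15.9 in Het 3 at 72 h, and at 26.4 in cKO 2 against 28.3 in Het 1 at 48 h. Imp4 was at 48.8 FPKM in cKO 2 against 35.5 in Het 1 and at 34.8 in cKO 4 against 37.8 in Het 3 at 72 h, and at 53.5 in cKO 2 against 47.8 in Het 1 at 48 h. Imp3 was at 59.9 FPKM in cKO 2 against 51.2 in Het 1 and at 39.7 in cKO 4 against 44.6 in Het 3 at 72 h, and at 68.9 in cKO 2 against 59.0 in Het 1 at 48 h. Mphosph10 thus had the order of the other factors in full, while Imp3 and Imp4 had it over a narrower range. Utp3 had a difference of -0.01 in the first pair and of -0.02 in the second.

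Among the enzymes, with medians of 0.75 and 0.14, the largest difference in the first pair was that of Rcl1, the counterpart of a yeast factor of early precursor cleavage. Rcl1 was at 28.8 FPKM in cKO 2 against 11 in Het 1 and at 17.3 in cKO 4 against 14.6 in Het 3 at 72 h, and at 28.7 in cKO 2 against 25.7 in Het 1 at 48 h. Nat10, which acetylates cytidines of 18S ribosomal RNA, was at 50.6 FPKM in cKO 2 against 22 in Het 1 and at 31.5 in cKO 4 against 26.1 in Het 3 at 72 h, and at 43.3 in cKO 2 against 42.9 in Het 1 at 48 h. Ddx49, the counterpart of the yeast helicase Dbp8, was at 42.3 FPKM in cKO 2 against 27.4 in Het 1 and at 31.6 in cKO 4 against 28.5 in Het 3 at 72 h, and at 46.0 in cKO 2 against 39.4 in Het 1 at 48 h. All 3 had both cKO libraries above both Het libraries at 72 h, as did 24.9% of all genes. In them cKO 4 lay nearer to the Het libraries than to cKO 2. Rcl1 and Nat10 were named for their small p for genotype at 72 h, which favours this order. The exons of Ddx49 overlap over 29.8% of their length with Homer3 on the opposite strand. The helicase Dhx37, which frees U3 from the precursor in yeast, and its activator Utp14a had differences of 0.87 and 0.75 in the first pair and of 0.13 and 0.17 in the second. Reads of Utp14a may be shared with its retrocopy Utp14b, at a mean of 5.02 FPKM. The GTPase Bms1 stood at 0.40 and -0.05, and the helicase Ddx52 at 0.28 and -0.12.

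The other processome factors had medians of 0.73 and 0.15, and all 11 were higher in cKO 4 than in Het 3, by 0.06 to 0.33, in a pair where 62.4% of all genes were higher and the median of all genes was 0.09. Utp20, a very large HEAT-repeat scaffold, was at 12.5 FPKM in cKO 2 against 3.67 in Het 1 and at 5.32 in cKO 4 against 4.03 in Het 3 at 72 h, and at 9.48 in cKO 2 against 10.7 in Het 1 at 48 h. Wdr46, the counterpart of yeast Utp7, was at 60.5 FPKM in cKO 2 against 30.8 in Het 1 and at 41.3 in cKO 4 against 33.9 in Het 3 at 72 h, and at 68.7 in cKO 2 against 57.0 in Het 1 at 48 h. Nol6, the counterpart of Utp22, was at 69.2 FPKM in cKO 2 against 32.5 in Het 1 and at 45.0 in cKO 4 against 40.7 in Het 3 at 72 h, and at 76.8 in cKO 2 against 64.6 in Het 1 at 48 h. In these 3 genes both cKO libraries lay above both Het libraries at 72 h, as in 24.9% of all genes. Utp20 and Wdr46 were named for their small p for genotype at 72 h, which favours this order. Pdcd11, the counterpart of yeast Rrp5, had differences of 0.91 and 0.16, and Dcaf13, the counterpart of Sof1, of 0.73 and 0.18. The group also held the smallest differences outside the MPP10 complex, 0.11 for Utp23 and 0.22 for Ngdn in the first pair. Ngdn forms a complex with Aatf and Nol10 in human cells, and these had differences of 0.76 and 0.57 there. The RNA-binding protein Krr1 stood at 0.50 and Utp11 at 0.42.

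**Figure D3:**
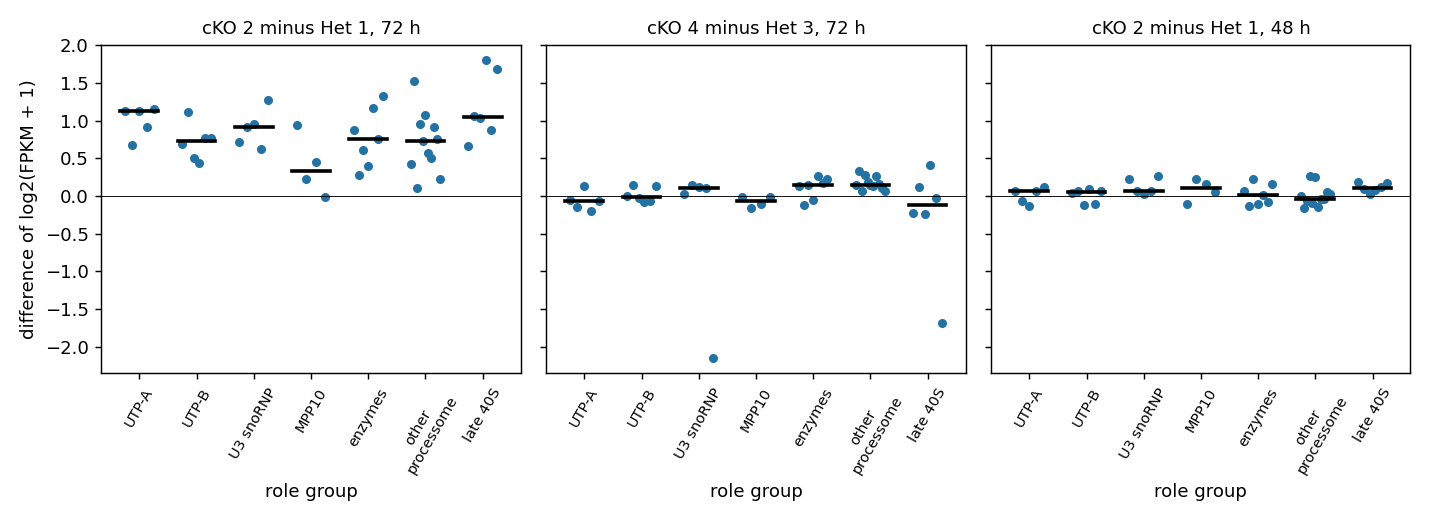
Difference of log2(FPKM + 1) between the library labelled cKO and that labelled Het in the 3 pairs, by role group. Each point is 1 factor and black bars are medians. The first pair at 72 h lies almost wholly above 0, while the second and the 48 h pair lie around 0, with Rrp9 at -2.15 and Rrp12 at -1.68 in the second.

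No factor differed by genotype at 72 h past the threshold of the test. Of 12488 genes tested with limma, 0 had an adjusted p under 0.05, 0% in either direction, and the factors' adjusted p ran from 0.276 to 0.996. At an unadjusted p under 0.05, 2 of the 44 factors, Pno1 and Wdr46, were higher in cKO and 0 were lower. Among all genes, 10.3% were higher and 6.99% lower at that level, so the factors' share was not above the background. The factors' median log2 fold change was 0.39, with 42 of 44 above 0, beside a median of 0.08 and 61.0% above 0 over all genes tested. The early factors had a median of 0.38 and the late factors one of 0.41. Both cKO libraries lay above both Het libraries for 18 of the 44 (40.9%), beside 24.9% of all genes, and below them for 0, beside 13.8%. With the table as a term, 1 residual degree of freedom was left in that fit.

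The median rested on the first pair: it was 0.08 without cKO 2 or without Het 1 at 72 h, and 0.77 without cKO 4 or without Het 3. In cKO 2 against Het 1 at 72 h, 43 of 44 factors were higher, beside 56.2% of all genes, with a median difference of 0.77 beside 0.06. At least 2-fold higher were 13 factors, beside 5.28% of all genes, among them 4 of the 6 late factors, and 0 were at least 2-fold lower, beside 3.9%. In cKO 4 against Het 3, 26 of 44 were higher, beside 62.4% of all genes, and the median was 0.08 beside 0.09. There 0 factors were at least 2-fold higher, beside 4.18% of all genes, and 2 were at least 2-fold lower, Rrp9 and Rrp12, beside 1.79%. The early factors had medians of 0.75 and 0.10 in the first and second pair and the late factors 1.05 and -0.12. With 1 library per genotype in a pair, these differences have no replicate check.

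At 48 h the factors were nearly level between the labels. In cKO 2 against Het 1, 30 of 44 were higher, beside 49.5% of all genes, and 14 lower, beside 50.5%. The differences ran from -0.16 to 0.27 with a median of 0.05, beside 0.00 over all genes. At least 2-fold higher were 0 factors, beside 1.26% of all genes, and at least 2-fold lower 0, beside 0.729%. All 6 late factors were higher, by 0.03 to 0.19, and the early factors had a median of 0.04. Rrp9 and Wdr46, both at 0.27, had the largest differences and Utp20, at -0.16, the lowest. Over both times together, with 3 libraries per genotype, limma called 0 of 12394 genes, 0% in each direction, and 0 factors. That fit took the libraries as independent, although those of cKO 2 share a replicate number over the times, as do those of Het 1. At an unadjusted p under 0.05, 1 factor was higher, Wdr46 at 0.50 ± 0.17 (SE), beside 8.04% of all genes. The factors' median was 0.27, beside 0.05 over all genes, and it was 0.04 without cKO 2 or without Het 1 at 72 h.

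In the first table, most factors differed between 72 h and 48 h in Het 1 and differed little in cKO 2. In Het 1, 43 of 44 factors were lower at 72 h than at 48 h, beside 52.8% of all genes, with a median difference of -0.70 beside -0.03. At least 2-fold lower were 6 factors, Heatr1, Rrp9, Rcl1, Utp20, Pno1 and Rrp12, beside 2.68% of all genes. The late factors had a median of -0.89 and the early factors of -0.67, and Utp23 alone of the 44 was above 0, at 0.08, beside 47.2% of all genes. At least 2-fold higher were 0 factors, beside 4.76%. In cKO 2, 32 of 44 were higher at 72 h, beside 54.8% of all genes, and 12 lower, beside 45.2%. The median was 0.09, beside 0.03, and 0 factors were 2-fold higher or lower, beside 3.01% and 0.927% of all genes. The differences ran from -0.27 for Fbl to 0.37 for Utp20, and that of Utp20 in Het 1 was -1.33. Het 1 at 72 h enters both this comparison and the genotype difference of the first pair, so the 2 are not independent.

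**Figure D4:**
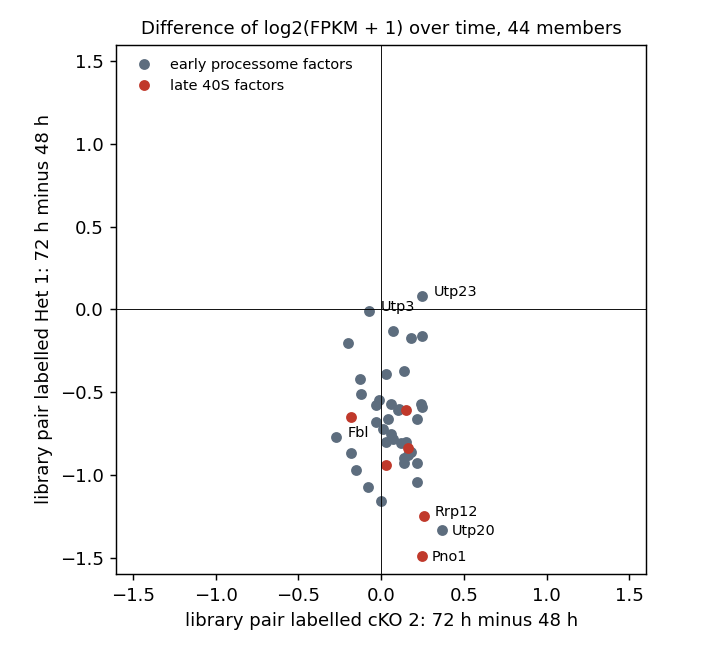
Difference of log2(FPKM + 1) between 72 h and 48 h for the 44 factors, in the pair labelled cKO 2 on the horizontal axis and in the pair labelled Het 1 on the vertical axis. Points spread from -1.49 (Pno1) to 0.08 (Utp23) vertically but only from -0.27 (Fbl) to 0.37 (Utp20) horizontally.

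With genotype, time and table in 1 limma fit over 6 libraries, 0 factors passed an adjusted p of 0.05 for time, with values from 0.438 to 0.992. Only the first table held both times, so each time estimate averaged the unlike differences of Het 1 and cKO 2. That fit had 2 residual degrees of freedom and took the libraries as independent. Among all 12394 genes 3 were higher at 72 h (0.0242%) and 0 were lower (0%). At an unadjusted p under 0.05, 2 factors were lower, Fbl at -0.52 ± 0.19 and Wdr46 at -0.52 ± 0.21 (SE), beside 4.63% of all genes, and 0 were higher, beside 6.45%. The factors' median was -0.34, with 41 of 44 below 0, beside a median of 0.00 and 49.7% below 0 over all genes. Without Het 1 at 72 h the factors' median was 0.07, without Het 1 at 48 h it was -0.10, and without cKO 2 at 72 h it was -0.73. The genotype difference at 72 h was not shown to differ from that at 48 h: 0 factors passed the interaction term at an adjusted or an unadjusted p under 0.05, beside 0% of all genes at the adjusted level and 3.43% above 0 and 2.28% below 0 at the unadjusted one. The factors' median interaction was 0.36, and it was 0.04 without the first pair's cKO 2 or Het 1 at 72 h. That term had 1 residual degree of freedom.

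Other 40S factors were a list of 22 genes, of which 20 were matched to a measured gene ID. They had smaller values than the 44, and the difference between the lists was not tested. Their median log2 fold change at 72 h was 0.22, with 16 of 20 above 0, beside a median of 0.08 and 61.0% above 0 over all genes, and 0 passed limma's adjusted p of 0.05. Rps19bp1, which binds a small subunit protein, was at 31.3 FPKM in cKO 2 against 22.7 in Het 1 and at 22.3 in cKO 4 against 16.2 in Het 3 at 72 h, and at 39.8 in cKO 2 against 30.4 in Het 1 at 48 h. It was higher under the cKO label in all 3 pairs, at 0.44 ± 0.13 (SE, limma adjusted p = 0.236) at 72 h. The genotypes still overlapped at 72 h, with cKO 4 at 22.3 FPKM and Het 1 at 22.7. Rps19bp1 was also named for its small p, and the share of all genes higher in all 3 pairs was not counted. Tsr2, an escort of ribosomal protein eS26 in yeast, was at 12 FPKM in cKO 2 against 5.35 in Het 1 and at 7.45 in cKO 4 against 6.41 in Het 3 at 72 h, and its log2 fold change was 0.61 ± 0.26 (SE). Nol11, a vertebrate UTP-A protein, was at 32.8 FPKM in cKO 2 against 16.7 in Het 1 and at 17.9 in cKO 4 against 16.4 in Het 3, with a log2 fold change of 0.52 ± 0.24. Tsr2 and Nol11, named for their small p for genotype, had the cKO libraries above the Het libraries, and cKO 4 close to them. Of all genes, 24.9% had both cKO libraries above both Het libraries at 72 h. The cytoplasmic kinase Riok3 had a log2 fold change of 0.34 ± 0.13 (SE) for 72 h against 48 h, the only one of the 20 above 0 at an unadjusted p under 0.05, beside 6.45% of all genes. Rps19bp1, at -0.37 ± 0.12 (SE), was the only one below 0 at that level, beside 4.63%. Of the partners of Noc4l, Nop14 was at 59.2 FPKM in cKO 2 against 29.5 in Het 1 and at 31.4 in cKO 4 against 31.2 in Het 3 at 72 h. Nop14 thus had the order of the libraries seen in most of the 44, and so did Noc4l itself, by the values given above. Emg1, a methyltransferase of 18S ribosomal RNA, was at 101 FPKM in cKO 2 against 92.3 in Het 1 and at 34.5 in cKO 4 against 80.2 in Het 3.

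The low values of Rrp9 and Rrp12 in cKO 4 were shared by other genes of similar name, which were looked up after these values were seen. All 8 measured genes with a symbol that starts with Rrp, the prefix for ribosomal RNA processing, that averaged 5 FPKM or more had a value in cKO 4 no higher than 0.5 of that in any other library, on the FPKM + 1 scale. Of all 9284 genes with such a mean, 29 did (0.312%), and of the 42 factors with other names 0 did. The 29 also held genes of RNA processing and ribosomes (Emg1, Dis3, Exosc5, Rpl12, mt-Rnr1 and mt-Rnr2), and others with different roles, among them Hsp90aa1, Vegfa, P4ha2, Hk2, Ak4, Hilpda, Galk1, Fads2 and H2-Ab1. Rrp1, a nucleolar factor of the large subunit, was at 11.5 FPKM in cKO 4 against 125 in Het 3. Rrp7a, of the processome, was at 6.17 FPKM in cKO 4 against 43.8 in Het 3. Rrp1b was at 15.0 FPKM in cKO 4 against 78.3 in Het 3, and Rrp36 at 7.53 against 24.7. Rrp15 was at 0.496 FPKM in cKO 4 against 4.94 in Het 3, and Rrp8 at 4.99 against 18.2. Factors of both the large and the small subunit were thus among these 8, and what the low values share beyond the library and the name was not tested.

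**Figure D5:**
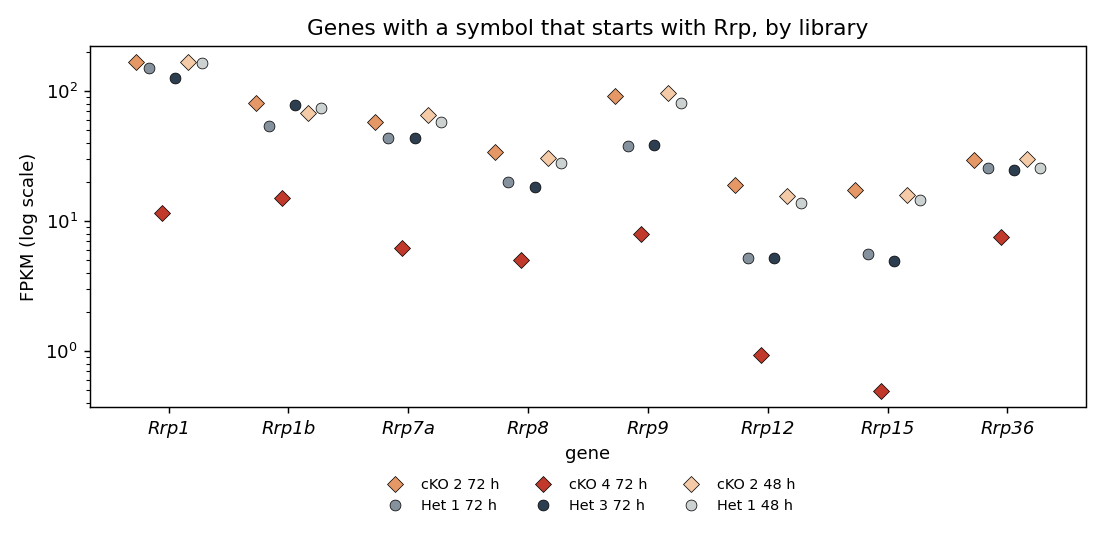
FPKM on a log scale of the 8 genes with a symbol that starts with Rrp, in the 6 libraries. Diamonds are libraries labelled cKO and circles those labelled Het, and cKO 4 at 72 h is the lowest point for every gene, down to 0.496 FPKM for Rrp15.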

How the data were processed

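RNA was measured in 6 libraries made with the SMART-Seq v4 kit, per the labels' protocols. The authors deposited FPKM in 2 tables; the submitters' processing notes name HTSeq 0.6.1, TopHat2 2.0.12, Bowtie2 2.2.3 and the build mm9, with roles, annotation and strand setting not given in the sources used here. The 47347 shared rows held 47069 Ensembl gene IDs, and 278 rows without one were left out. Symbols came from GENCODE M21, of another build, so no coordinates are printed from the tables or that annotation; those of promoter windows are RefSeq's, on GRCm38.p6.

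The members and lists were chosen with earlier results of these data known. Values were compared as log2(FPKM + 1), which understates changes of low genes, for genes that averaged 1 FPKM or more over the libraries compared. Tests used limma (version 3.58.1, under R 4.3.3) with a variance trend and Benjamini-Hochberg adjustment over all genes tested. The code was also run on simulated data with planted shifts and independent noise. Such noise lacks the shared shifts of these libraries, so nothing about these data is concluded from that run. Single pairs of libraries got differences of log2(FPKM + 1) with no test, and 2-fold means a difference of 1 on that scale.

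Depth was estimated from the deposited FPKM and annotated mean transcript lengths: 86.0% to 86.8% of low values lay within 0.02 of a whole fragment, against 3.51% to 4.19% with scrambled lengths. The depth was chosen for a high share with the annotated lengths, and scrambled lengths were scored at that same depth. The contrast is therefore not a test of the depth. Estimated depth served for counting intervals only, and no count test was run. By the rule for named genes, values in every library are given for all late factors and, in each early role group, for the 2 factors with the smallest p for genotype at 72 h and for time, and for the highest and lowest factor by mean. Of the other 40S factors the 3 with the smallest p for each were taken, and Noc4l, Nop14 and Emg1. Rrp9 and the other Rrp genes were added after their values were seen. Replicate numbers occur at both times for 1 and 2 only, each within 1 genotype, so whether they pair the samples could not be checked. Python 3.11.15, pandas 2.3.3, numpy 2.4.6 and matplotlib 3.10.9 were used.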

Additional observations from a re-analysis of the deposited data

How the results depend on the processing

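Settings changed one at a time were a pseudocount of 0.1 or 5, no filter or one at 5 FPKM, scaling (median centring, quantiles or TPM), no variance trend, no table term and each library left out. Time was also fitted on the first table alone and with the replicate number as a block. Under every one of them that gave a test, 0 factors passed an adjusted p of 0.05 for genotype at 72 h, genotype over both times, time or the interaction, which was not fitted without the table term. At 72 h, leaving out a library left 1 pair and no residual degree of freedom, hence values with no test. The same held for the interaction, which could not be estimated without a 48 h library.

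The factors' median kept its direction under the other settings, at 0.29 to 0.40 for genotype at 72 h, 0.21 to 0.28 over both times, -0.51 to -0.28 for time and 0.28 to 0.39 for the interaction. Leaving out a library gave 0.08 to 0.77, 0.04 to 0.42, -0.73 to 0.07 and 0.04 to 0.79 for these. With the replicate block, the median for time was unchanged by construction and 0 genes of all passed for time, against 3 without the block; it changed no call of a factor. The count for time was 1 with pseudocount 5 and 0 with no filter or no table term, and 0 to 4 without 1 library, and the cause was not tested. For genotype at 72 h, 8 genes of all passed with no filter, and over both times 0 to 7 without 1 library. The order of the libraries, 41 of 44 factors, was 38 after TPM rescaling and 41 after quantile normalization and median centring, alternatives chosen after seeing the data.

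Of 50 results for single named factors, 0 passed the threshold in any setting and 24 changed sign in some. For genotype at 72 h, Rrp12 was at -0.25 with pseudocount 0.1, -0.08 after TPM rescaling, -0.14 after quantile normalization and -0.09 after median centring. Imp3 was at -0.02 after quantile normalization and -0.06 after median centring. Without 1 library, the ranges at 72 h were -0.05 to 1.13 for Utp4, -0.02 to 0.94 for Mphosph10, -0.11 to 0.45 for Imp4, -0.22 to 0.66 for Nob1, -0.24 to 1.03 for Tsr1, -0.03 to 0.88 for Bysl, -1.68 to 1.69 for Rrp12, -0.15 to 0.67 for Utp15 and -0.16 to 0.22 for Imp3. For time they were -0.97 to 0.16 for Heatr1, -0.96 to 0.17 for Utp4, -0.88 to 0.12 for Pwp2, -0.65 to 0.03 for Wdr36, -0.76 to 0.06 for Nop56, -0.79 to 0.10 for Nop58, -0.84 to 0.17 for Mphosph10, -0.87 to 0.16 for Nat10, -1.21 to 0.24 for Utp20, -0.94 to 0.02 for Ltv1, -0.91 to 0.23 for Tsr1, -1.40 to 0.16 for Pno1, -0.64 to 0.19 for Bysl, -1.71 to 0.73 for Rrp12 and -0.74 to 0.04 for Utp15. Without Het 1 at 72 h all of these time values were above 0, and without Het 1 at 48 h that of Utp20 was 0.07. With few libraries, moderate differences may be missed, and 0 calls do not show that the factors are alike.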
